A study of Mus musculus with 12 samples.

Results

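The genes described here belong to the amino acid stress response and the unfolded protein response. They were chosen by symbol, with earlier results of these data known. The list held 37 genes, 26 of the ATF4 type (Atf3 to Cth) and 11 that serve protein folding in the endoplasmic reticulum (ER). The 11 are called ER chaperone genes below. A gene was measured if a probe set of the array was annotated to that symbol alone, and where a gene had several such probe sets the one with the highest mean was used. This gave 35 of the 37 genes, 25 of the ATF4 type and 10 ER chaperone genes, among 22180 genes named in the same way. Pycr1 and Pdia4 had no probe set annotated to them alone.

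The cells were mouse embryonic stem (ES) cells of the line K3, and RNA was profiled on whole-transcript Affymetrix arrays to ask what the orphan nuclear receptor ERRb, product of the gene Esrrb, does to gene expression. The labels give 3 groups of 4 arrays: WT/mock with Esrrb intact, KO/mock with Esrrb knocked out, and KO/ERRb-wt, in which knockout cells had received ERRb from a lentivirus. The sources used here do not describe the mock treatment. Each group came from 2 clones with 2 arrays per clone: WT/mock from 5-2 and 5-5, KO/mock from 8-3 and 8-4, KO/ERRb-wt from 12-1 and 12-3. Arrays are named by clone and replicate, so that 5-2/1 is replicate 1 of clone 5-2. All groups were kept in N2B27, a serum-free medium, with the inhibitors CH99021 and PD0325901, without LIF, and with doxycycline for the last 3 days. Values are on the log2 scale of the deposited table, in which array medians lay between 5.00 and 5.07.

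When amino acids run short or unfolded protein builds up in the ER, kinases such as Gcn2 and Perk phosphorylate the translation factor eIF2alpha. General translation then falls while the mRNA of the transcription factor ATF4 is translated better. ATF4 switches on amino acid transporters, biosynthetic enzymes and, when stress lasts, genes such as Ddit3 and Chac1 that favour cell death. The other arms of the unfolded protein response, ATF6 and the IRE1 and XBP1 arm, mainly raise chaperones, folding enzymes and degradation factors of the ER. ATF4 is controlled largely at translation, which an RNA array does not measure.

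The promoters of both classes were searched for 2 known elements. ATF4 with a C/EBP partner binds a composite element with the core TGATGNAA, and ATF6 binds the ER stress element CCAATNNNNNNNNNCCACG with NF-Y. Both were searched on both strands from 250 bases before to 50 bases after the start site, in RefSeq promoters of GRCm38.p6. The composite core was found in 8 of the 23 ATF4-type genes with a window (Atf3, Chac1, Nupr1, Trib3, Asns, Pycr1, Slc7a11 and Vldlr), in 1 of 10 ER chaperone genes (Herpud1), and in 4.51% of all 27025 genes of the promoter table. The ER stress element was found in none of those 23 ATF4-type genes, in 4 of the 10 ER chaperone genes (Hspa5, Hsp90b1, Calr and Creld2) and in 0.137% of all genes. No window was given for Slc7a3, Slc7a5, Cth and Manf. A match describes letters only and does not show binding. The windows below hold the match, in capitals, with 20 bases on either side, 5′ to 3′ on the gene's own strand and all before the start site. The first 4 are shown because these genes were lower on the arrays labelled KO/mock, and the others give the element of the ER class. They are Atf3 (chr1:191183416-191183463, minus strand), Chac1 (chr2:119351029-119351076, plus), Nupr1 (chr7:126625553-126625600, minus), Vldlr (chr19:27216800-27216847, plus), Hspa5 (chr2:34772005-34772063, plus) and Creld2 (chr15:88819500-88819558, plus).
Atf3: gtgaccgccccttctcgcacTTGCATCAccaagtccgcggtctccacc
Chac1: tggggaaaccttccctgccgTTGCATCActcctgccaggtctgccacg
Nupr1: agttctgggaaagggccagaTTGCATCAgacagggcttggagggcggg
Vldlr: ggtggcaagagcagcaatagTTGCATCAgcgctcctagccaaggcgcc
Hspa5: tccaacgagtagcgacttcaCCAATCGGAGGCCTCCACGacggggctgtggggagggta
Creld2: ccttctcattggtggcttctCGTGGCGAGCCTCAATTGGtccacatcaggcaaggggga
In Atf3, Chac1, Nupr1 and Vldlr the core read TTGCATCA, the same 8 letters on the reverse strand, and in Creld2 the ER stress element also lay on the reverse strand.

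Esrrb, the targeted gene, went against the labels. Its probe set read 7.38 ± 0.0041 (SD, n = 4) in WT/mock, 7.66 ± 0.27 in KO/mock and 6.73 ± 0.21 in KO/ERRb-wt. The KO/ERRb-wt arrays were lower than WT/mock by a log2 difference of -0.65 (limma, adjusted p = 0.00557) and lower than KO/mock by -0.93 (adjusted p = 0.00436), while KO/mock minus WT/mock was 0.28 (adjusted p = 0.324). Without clone 12-3 the call against WT/mock ended (adjusted p = 0.0591). The sources used here do not say where the lesion lies or which part of the gene the virus carries, so this probe set may check neither label. Groups are called by their labels throughout, and each direction is one between labelled arrays. Of 9 ES cell markers, the list mean per array was between 9.83 and 10.06, against 4.49 to 4.76 for feeder fibroblast, 5.21 to 5.42 for primitive endoderm, 5.13 to 5.43 for neuroectoderm and 5.34 to 5.58 for mesoderm markers. Of the ES cell markers, 1 was called lower on KO/mock than WT/mock, 4 lower on KO/ERRb-wt than KO/mock and 4 lower on KO/ERRb-wt than WT/mock, and none higher. Of 7 primitive endoderm markers 1 was lower on KO/mock than WT/mock, 1 higher and 1 lower on KO/ERRb-wt than KO/mock, and 1 lower on KO/ERRb-wt than WT/mock. Of 6 neuroectoderm markers the counts were 1 lower, 1 higher, and 1 higher with 2 lower. Of 7 feeder markers 1 was higher on KO/ERRb-wt than WT/mock, and none of 5 mesoderm markers was called. Calls, here and below, are at an adjusted p under 0.05. Over all 22180 genes 3.47%, 3.17% and 12% were called lower in the 3 comparisons, in the order used for the ES cell markers. The shares called higher were 2.11%, 1.24% and 8.82%. Among genes with a mean of at least 6, 10.8%, 8.30% and 37.8% were called in either direction. The part of the marker shifts in the results below was not tested.

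If the labels hold, KO/mock against WT/mock asks what the knockout changes. Of 25 measured ATF4-type genes, 4 fell and none rose: Atf3, Chac1, Nupr1 and Vldlr, by 1.53-fold to 1.78-fold. Over all 22180 genes 3.47% were called lower and 2.11% higher. The median difference of the ATF4-type genes was -0.16, with 19 of 25 below 0, against 0.00 over all genes. None of the 10 ER chaperone genes passed the test, and their median was 0.05, with 8 of 10 above 0. An unadjusted p under 0.05 was found for 13 of the ATF4-type and 2 of the ER chaperone genes (Hspa5 and Creld2), against 20.3% of all genes and 34.1% of the 9761 genes with a mean of at least 6. A gene was called at a Benjamini-Hochberg adjusted p under 0.05 over all 41345 probe sets in a limma fit of all 12 arrays with clone as a random block. Whether the labels' biological replicates were separate cultures is not stated. The fit used a shared clone correlation of 0.0286 for all probe sets, so p-values and standard errors measure mainly the spread between arrays. They hold little of the clone differences that many ATF4-type genes showed, given below. Without the clone block 5 ATF4-type genes were called here, and with clone averages 0 were. A difference between groups cannot be told apart from a difference between the clones that make them up.

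Among the transcription factors and stress effectors, Atf3, a stress-induced repressor of the ATF family, read 7.03 and 7.17 on clone 5-2 and 6.69 and 6.69 on clone 5-5 of WT/mock. On KO/mock it read 6.33 and 6.44 on clone 8-3 and 5.90 and 5.60 on clone 8-4. All 4 KO/mock arrays were below all 4 WT/mock arrays, clone 8-4 most of all. The difference was -0.83 ± 0.17 (SE; adjusted p = 0.0196). The call ended without 5-2/1, 5-2/2 or 8-4/1 (adjusted p up to 0.0654).

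Chac1, a glutathione-degrading enzyme induced by ATF4, read 7.90, 8.20, 7.79 and 7.42 on WT/mock, in the order 5-2 then 5-5, and 7.04, 7.36, 7.01 and 6.58 on KO/mock, in the order 8-3 then 8-4. The groups did not overlap, and their nearest arrays stood at 7.42 and 7.36. The difference was -0.83 ± 0.20 (SE; adjusted p = 0.0399). Leaving out any of 7 arrays ended the call, with adjusted p up to 0.113: 5-2/1 and 5-2/2, 5-5/1, 8-3/1, 8-4/1 and 8-4/2, and 12-3/2.

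Nupr1, a small chromatin-associated stress protein, read 10.09, 10.13, 9.77 and 9.53 on WT/mock and 9.29, 9.53, 9.04 and 9.09 on KO/mock. The groups met at 9.53, where the second array of clone 5-5 and the second array of clone 8-3 lay. The difference was -0.64 ± 0.14 (SE; adjusted p = 0.0254). It lost its call without 5-2/1 or 5-2/2, 8-3/1, or 8-4/1 or 8-4/2, with adjusted p up to 0.0854.

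Vldlr, the very low density lipoprotein receptor, a known ATF4 target under ER stress, read 6.43, 6.41, 6.15 and 6.16 on WT/mock and 5.67, 5.74, 5.57 and 5.74 on KO/mock. These are dim values, with a mean over all arrays under 6, yet all 4 KO/mock arrays were well below the lowest WT/mock array. The difference was -0.61 ± 0.08 (SE; adjusted p = 0.00198), and the call held without any single array (adjusted p up to 0.00876). With 1 average per clone it was not called (adjusted p = 0.12), a fit in which 3 of all 22180 genes were.

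Ddit3, which encodes the pro-apoptotic factor CHOP, read 7.19, 7.33, 6.56 and 6.68 on WT/mock and 6.33, 6.61, 6.17 and 6.43 on KO/mock, so clone 5-5 and clone 8-3 overlapped. Its difference of -0.55 ± 0.18 (SE) did not pass (adjusted p = 0.126). Atf4 itself read 9.88 to 10.04 on WT/mock and 9.89 to 10.03 on KO/mock, a difference of 0.00 with a 95% interval from -0.16 to 0.17. Trib3, a pseudokinase that restrains the response, differed by -0.22 ± 0.13 (SE; adjusted p = 0.463), and Atf5 and Cebpb by -0.10 and -0.15, neither of which passed.

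No enzyme or transporter of the list passed against WT/mock on the arrays labelled KO/mock. The 8 measured enzymes of serine, glycine, proline, asparagine and one-carbon metabolism had a median of -0.16, and 7 of them were below 0. Asns, asparagine synthetase, was below WT/mock on all 4 KO/mock arrays, and so was Aldh18a1, the first enzyme of proline synthesis. Their differences were -0.16 each, with adjusted p of 0.12 and 0.156. Cth, which makes cysteine from cystathionine, read 9.69, 9.80, 9.66 and 9.54 on WT/mock and 9.37, 9.53, 9.28 and 9.22 on KO/mock. Its groups did not overlap, and its difference of -0.32 missed the threshold at an adjusted p of 0.0507. Stc2, a secreted glycoprotein, also did not overlap, at -0.34 (adjusted p = 0.0597). The transporters did not go one way. Slc7a3, a cationic amino acid transporter, read 10.34, 10.27, 10.43 and 10.48 on WT/mock and 10.60, 10.54, 10.75 and 10.73 on KO/mock. Every KO/mock array lay above the WT/mock arrays, with a difference of 0.28 ± 0.07 (SE; adjusted p = 0.0572). Slc3a2 and Slc7a5, the 2 chains of a neutral amino acid transporter, differed by -0.22 and -0.13. Slc7a1 and Slc7a11 differed by 0.09 each, and the dimmer of the 2 Slc7a11 probe sets gave -0.08.

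**Figure D1:**
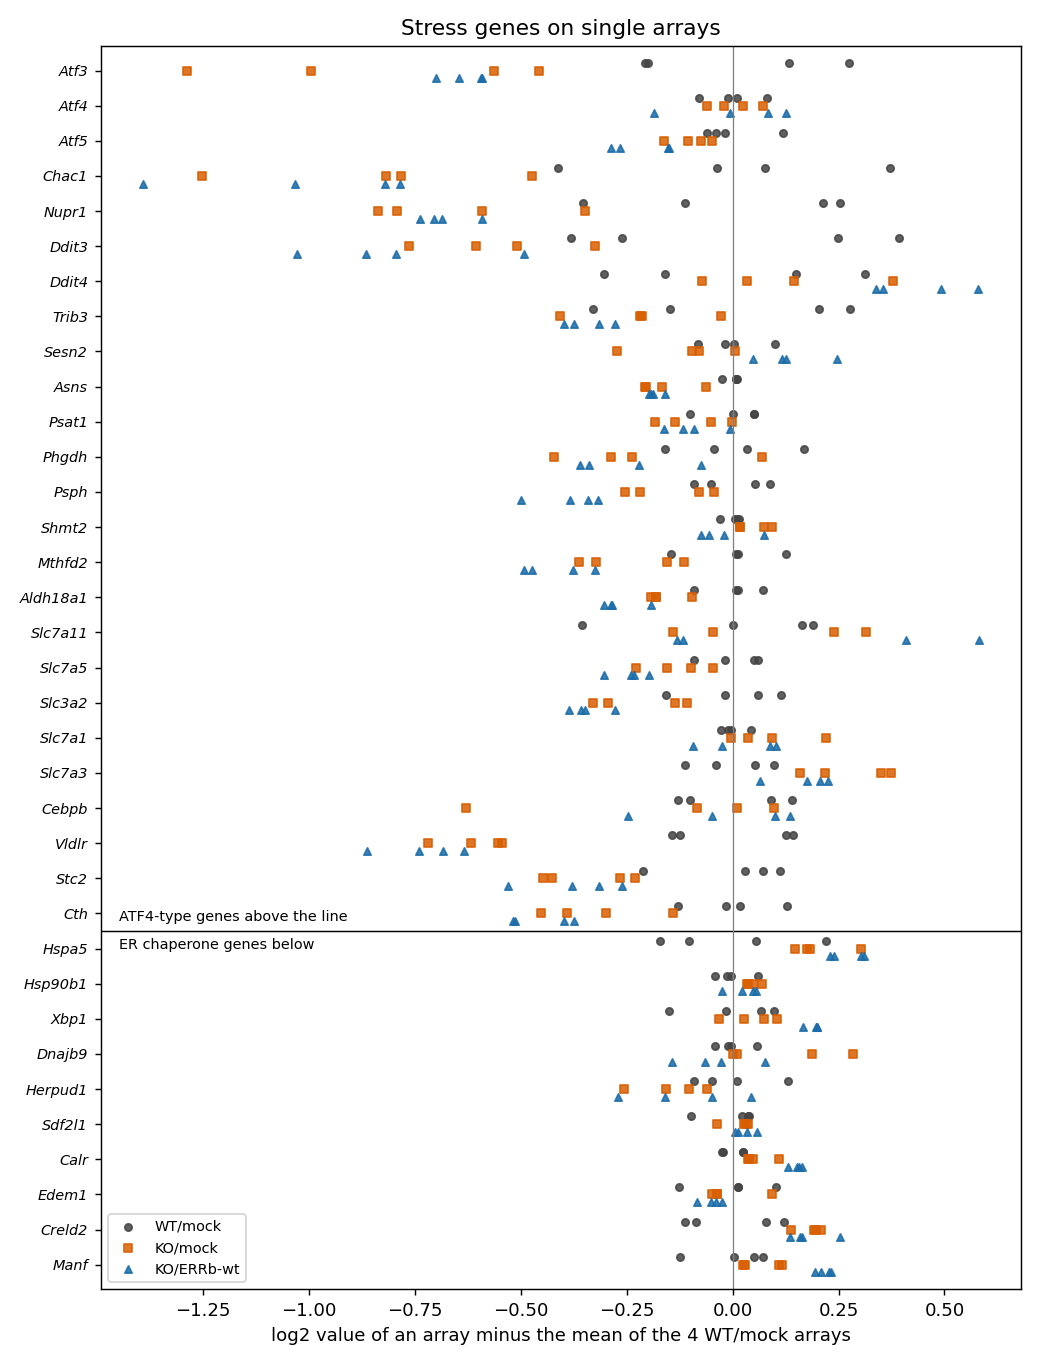
Each point is one array's log2 value of a gene minus the mean of the 4 WT/mock arrays (horizontal axis), for 35 genes in rows, with circles for WT/mock, squares for KO/mock and triangles for KO/ERRb-wt. Vldlr keeps both knockout labels left of every WT/mock array, while for Nupr1 and Ddit3 the WT/mock circles fall into a pair on either side of 0, clone 5-2 on the right.

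The ER chaperone genes showed smaller differences. Hspa5, the main ER chaperone, also called BiP, read 8.71 and 8.78 on clone 5-2 and 8.94 and 9.10 on clone 5-5 of WT/mock, and 9.06, 9.03, 9.19 and 9.07 on KO/mock. Clone 5-5 reached into the KO/mock range and clone 5-2 did not. The difference was 0.20 ± 0.08 (SE; adjusted p = 0.239). Creld2, an ER stress-inducible folding factor, read 9.21, 9.23, 9.44 and 9.40 on WT/mock and 9.52, 9.53, 9.51 and 9.46 on KO/mock, all above WT/mock (0.18, adjusted p = 0.168). Herpud1, an ER degradation factor and the only ER chaperone gene with a composite core, was at -0.15 (adjusted p = 0.433). Of the other 7, Hsp90b1, Xbp1, Dnajb9, Sdf2l1, Calr, Edem1 and Manf, the differences lay between -0.01 and 0.12.

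Groups that did not overlap gave a similar picture. In 7 of 25 ATF4-type genes (28%) all 4 KO/mock arrays were below all 4 WT/mock arrays, and in 2 all were above. Over all genes these shares were 7.48% and 8.44%, and over the 9761 genes with a mean of at least 6 they were 13.1% and 16.1%. Of the 10 ER chaperone genes 2 lay wholly above and none below.

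If the labels hold, KO/ERRb-wt against KO/mock compares knockout cells given ERRb by a lentivirus with mock-treated knockout cells. As the mock treatment is not described, a change from ERRb and one from the virus cannot be told apart. None of the 25 ATF4-type or 10 ER chaperone genes passed (limma). An unadjusted p under 0.05 was found for 4 ATF4-type genes (Ddit4, Sesn2, Psph and Mthfd2) and 2 ER chaperone genes (Xbp1 and Manf). Over all genes this share was 21.7%, and over genes with a mean of at least 6 it was 31.9%. Over all genes 1.24% were called higher and 3.17% lower, 274 and 703 genes. This split moved with the scaling: quantile normalization gave 302 higher and 449 lower, and median centring 214 and 866. The medians were -0.07 for the ATF4-type genes, 0.02 for the ER chaperone genes and 0.02 over all genes, or -0.04 over genes with a mean of at least 6. Atf3, Chac1, Nupr1 and Vldlr differed by 0.19, -0.18, -0.04 and -0.12. Their 95% intervals were -0.18 to 0.57, -0.61 to 0.26, -0.34 to 0.27 and -0.31 to 0.06. All KO/ERRb-wt arrays lay above all KO/mock arrays in 1 of the 25 ATF4-type genes (4%) and below in 2 (8%). These shares were 7.31% and 9.69% of all genes, and 8.79% and 19.2% of genes with a mean of at least 6. Of the 10 ER chaperone genes 3 lay wholly above and none below.

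Sesn2, a stress-induced inhibitor of mTORC1, read 9.96, 10.16, 10.24 and 10.14 on KO/mock and 10.36, 10.35, 10.48 and 10.28 on KO/ERRb-wt. All KO/ERRb-wt arrays were above all KO/mock arrays, by 0.24 ± 0.07 (SE; adjusted p = 0.0977). Ddit4, another mTORC1 inhibitor, read 8.53, 8.76, 8.42 and 8.31 on KO/mock and 8.87, 8.96, 8.74 and 8.72 on KO/ERRb-wt, with clone 8-3 reaching into the KO/ERRb-wt range (0.32, adjusted p = 0.236). Psph, the last enzyme of serine synthesis, read 7.36, 7.32, 7.15 and 7.18 on KO/mock and 7.08, 6.90, 7.02 and 7.06 on KO/ERRb-wt, without overlap (-0.24, adjusted p = 0.1). In the ER class Xbp1, the transcription factor of the IRE1 arm, read 9.11, 9.18, 9.15 and 9.05 on KO/mock and 9.28, 9.25, 9.28 and 9.28 on KO/ERRb-wt, again without overlap (0.15, adjusted p = 0.242). Dnajb9, a BiP cochaperone, read 7.98, 7.79, 7.80 and 8.08 on KO/mock and 7.76, 7.73, 7.65 and 7.87 on KO/ERRb-wt, with overlap (-0.16, adjusted p = 0.289).

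The arrays labelled KO/ERRb-wt and WT/mock differed most. This comparison has the same WT/mock arrays as the first, so the values of both are given side by side and are not counted as separate evidence. Of 25 ATF4-type genes 14 fell and 1 rose. Over all genes 12% were called lower and 8.82% higher, and of the 9761 genes with a mean of at least 6, where all but 3 of the 25 lie, 2241 were called lower and 1450 higher. The ATF4-type median was -0.25, with 19 of 25 below 0, against 0.03 over all genes. In 14 of the 25 (56%) all KO/ERRb-wt arrays were below all WT/mock arrays, against 15.0% of all genes and 28.2% of genes with a mean of at least 6. Of the 10 ER chaperone genes 2 rose and none fell, with a median of 0.09. In 5 of the 10 all KO/ERRb-wt arrays were above all WT/mock arrays, against 13.5% of all genes and 21.3% of genes with a mean of at least 6.

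Atf3 read 6.19, 6.25, 6.30 and 6.30 on KO/ERRb-wt, in the order 12-1 then 12-3. All were below WT/mock, and the difference was -0.63 ± 0.17 (SE; adjusted p = 0.0259) beside -0.83 on KO/mock. Leaving out 5-2/1, 5-2/2, 12-1/1, 12-1/2 or 12-3/2 ended its call (adjusted p up to 0.0776).

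Chac1 read 7.04, 6.44, 7.01 and 6.80 on KO/ERRb-wt and fell by 1.01 ± 0.20 (SE; adjusted p = 0.00495), which is 2.01-fold. Nupr1 read 9.19, 9.14, 9.18 and 9.29 and fell by 0.68 ± 0.14 (SE; adjusted p = 0.00617). Ddit3 read 6.44, 6.07, 6.14 and 5.91 and fell by 0.80 ± 0.18 (SE; adjusted p = 0.00971). For each of the 3 genes all 4 arrays were below WT/mock. No single array ended these calls, while leaving out the whole of clone 5-2 did, with adjusted p of 0.0646, 0.0747 and 0.093. Ddit3 also lost its call without clone 12-3 (adjusted p = 0.0904), and with 1 average per clone Nupr1 and Ddit3 did (adjusted p = 0.0904 and 0.0917).

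Vldlr read 5.43, 5.65, 5.55 and 5.61 and fell by 0.73 ± 0.08 (SE; adjusted p = 0.000175), beside -0.61 on KO/mock. Its call held in every alternative that kept its probe set, including clone averages. Atf5, a relative of ATF4, read 7.16, 7.00, 6.98 and 7.02 on WT/mock and 6.97, 6.99, 6.88 and 6.94 on KO/mock. On KO/ERRb-wt it read 6.75, 6.89, 6.89 and 6.78, a difference of -0.21 ± 0.06 from WT/mock (SE; adjusted p = 0.0358). Its KO/ERRb-wt and WT/mock arrays did not overlap. The call ended without 5-2/1 or 5-2/2, 5-5/2, 12-1/1 or 12-3/2 (adjusted p up to 0.102). Trib3 did not pass (-0.34, adjusted p = 0.0965), and Atf4 mRNA was again at 0.00 ± 0.07 (SE).

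Among the enzymes, 5 of 8 fell. Psph, which read 7.35, 7.45, 7.49 and 7.31 on WT/mock, fell by 0.39 ± 0.07 (SE; adjusted p = 0.00338). Mthfd2, the mitochondrial folate enzyme that uses the one-carbon units of serine, read 10.96, 11.08, 10.97 and 10.81 on WT/mock, 10.80, 10.84, 10.63 and 10.60 on KO/mock and 10.63, 10.48, 10.58 and 10.47 on KO/ERRb-wt. Its KO/mock values fell between the other groups, overlapping both, and it was lower on KO/ERRb-wt than WT/mock by -0.42 ± 0.08 (SE; adjusted p = 0.00397). Aldh18a1 read 10.17, 10.11, 10.11 and 10.01 on WT/mock, 9.92, 10.01, 9.92 and 9.91 on KO/mock and 9.82, 9.82, 9.91 and 9.80 on KO/ERRb-wt (-0.27, adjusted p = 0.00693 against WT/mock). These 3 calls held without any single array. With 1 average per clone none of them did (adjusted p = 0.0615, 0.0709 and 0.0989). Mthfd2 also lost its call without clone 5-2 (adjusted p = 0.0525), and Aldh18a1 without clone 5-2 or 12-1 (adjusted p = 0.0721 and 0.0507).

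Asns, among the brightest genes of the list, read 11.97, 11.97, 11.97 and 11.94 on WT/mock, 11.80, 11.90, 11.76 and 11.76 on KO/mock and 11.77, 11.77, 11.77 and 11.80 on KO/ERRb-wt. Every array of both knockout labels was below every WT/mock array, but the step against WT/mock was only -0.19 ± 0.05 (SE; adjusted p = 0.0284). Its call ended without any one of 7 arrays, 5-2/1 and 5-2/2, 5-5/1 and all 4 KO/ERRb-wt arrays (adjusted p up to 0.0683). Cth, the cysteine-making enzyme, read 9.30, 9.15, 9.27 and 9.16 on KO/ERRb-wt and fell by 0.45 ± 0.08 (SE; adjusted p = 0.00273), with or without any single array. Averaging the arrays of each clone ended this call (adjusted p = 0.0597). Psat1 and Phgdh, the first 2 enzymes of serine synthesis, and Shmt2, which makes glycine from serine, were at -0.09, -0.25 and -0.02 and did not pass.

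The transporter chains Slc3a2 and Slc7a5, which form the LAT1 exchanger, both fell. Slc3a2 read 11.81, 11.86, 11.73 and 11.59 on WT/mock, 11.61, 11.64, 11.42 and 11.45 on KO/mock and 11.39, 11.36, 11.40 and 11.47 on KO/ERRb-wt (-0.34, adjusted p = 0.00871). Slc7a5 read 11.73, 11.74, 11.66 and 11.59 on WT/mock, 11.58, 11.64, 11.53 and 11.45 on KO/mock and 11.44, 11.45, 11.49 and 11.38 on KO/ERRb-wt (-0.24, adjusted p = 0.0168). In both, KO/mock overlapped WT/mock and KO/ERRb-wt did not. The Slc7a5 call ended without 5-2/1 or 5-2/2 or 12-3/2 (adjusted p up to 0.0509). The Slc3a2 call held without any single array but ended without clone 5-2 or 12-1 (adjusted p = 0.105 and 0.0667). Slc7a1, Slc7a3 and Slc7a11 did not pass, at 0.02, 0.17 and 0.19. Stc2 read 6.92, 6.84, 6.60 and 6.88 on WT/mock, 6.58, 6.54, 6.38 and 6.36 on KO/mock and 6.43, 6.49, 6.28 and 6.55 on KO/ERRb-wt. It fell by 0.37 against WT/mock (adjusted p = 0.0152), a call that 5-2/1 decided (adjusted p = 0.0506 without it).

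Against this direction, Ddit4 rose. It read 8.53, 8.70, 8.22 and 8.08 on WT/mock and, on KO/ERRb-wt, 8.72 to 8.96, above all WT/mock arrays by 0.44 ± 0.14 (SE; adjusted p = 0.0488). Of 12 arrays left out in turn 10 ended this call, all but 5-2/2 and 8-3/2, with adjusted p up to 0.118, and so did the replicate block (adjusted p = 0.0655) and median centring (adjusted p = 0.0832). Sesn2, which read 10.24, 10.33, 10.15 and 10.22 on WT/mock, was at 0.13 and did not pass.

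Of the ER chaperone genes Hspa5 read 9.19, 9.11, 9.19 and 9.12 on KO/ERRb-wt, all above WT/mock, and rose by 0.27 ± 0.08 (SE; adjusted p = 0.0441). Of the 12 arrays left out in turn 10 ended this call, all but 5-5/2 and 8-4/1 (adjusted p up to 0.118), as did median centring (adjusted p = 0.0668) and the replicate block (adjusted p = 0.0619). Manf, a secreted ER stress factor with dim values, read 5.52, 5.65, 5.72 and 5.70 on WT/mock, 5.67, 5.75, 5.76 and 5.68 on KO/mock and 5.84, 5.87, 5.88 and 5.85 on KO/ERRb-wt. It rose by 0.22 ± 0.06 (SE; adjusted p = 0.0251) without overlap, a call ended without 5-2/1 or 5-2/2, 12-1/2 or 12-3/1 or 12-3/2 (adjusted p up to 0.0704). Median centring ended it too (adjusted p = 0.0603). Calr, a calcium-binding chaperone, was at 0.15 (adjusted p = 0.0506), and Xbp1, which read 9.06, 8.93, 9.15 and 9.18 on WT/mock, was at 0.19 (adjusted p = 0.0665). Creld2 read 9.45, 9.48, 9.57 and 9.48 on KO/ERRb-wt (0.18, adjusted p = 0.0893). Dnajb9, which read 7.75, 7.78, 7.79 and 7.85 on WT/mock, was at -0.04, and Herpud1 was at -0.11.

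**Figure D2:**
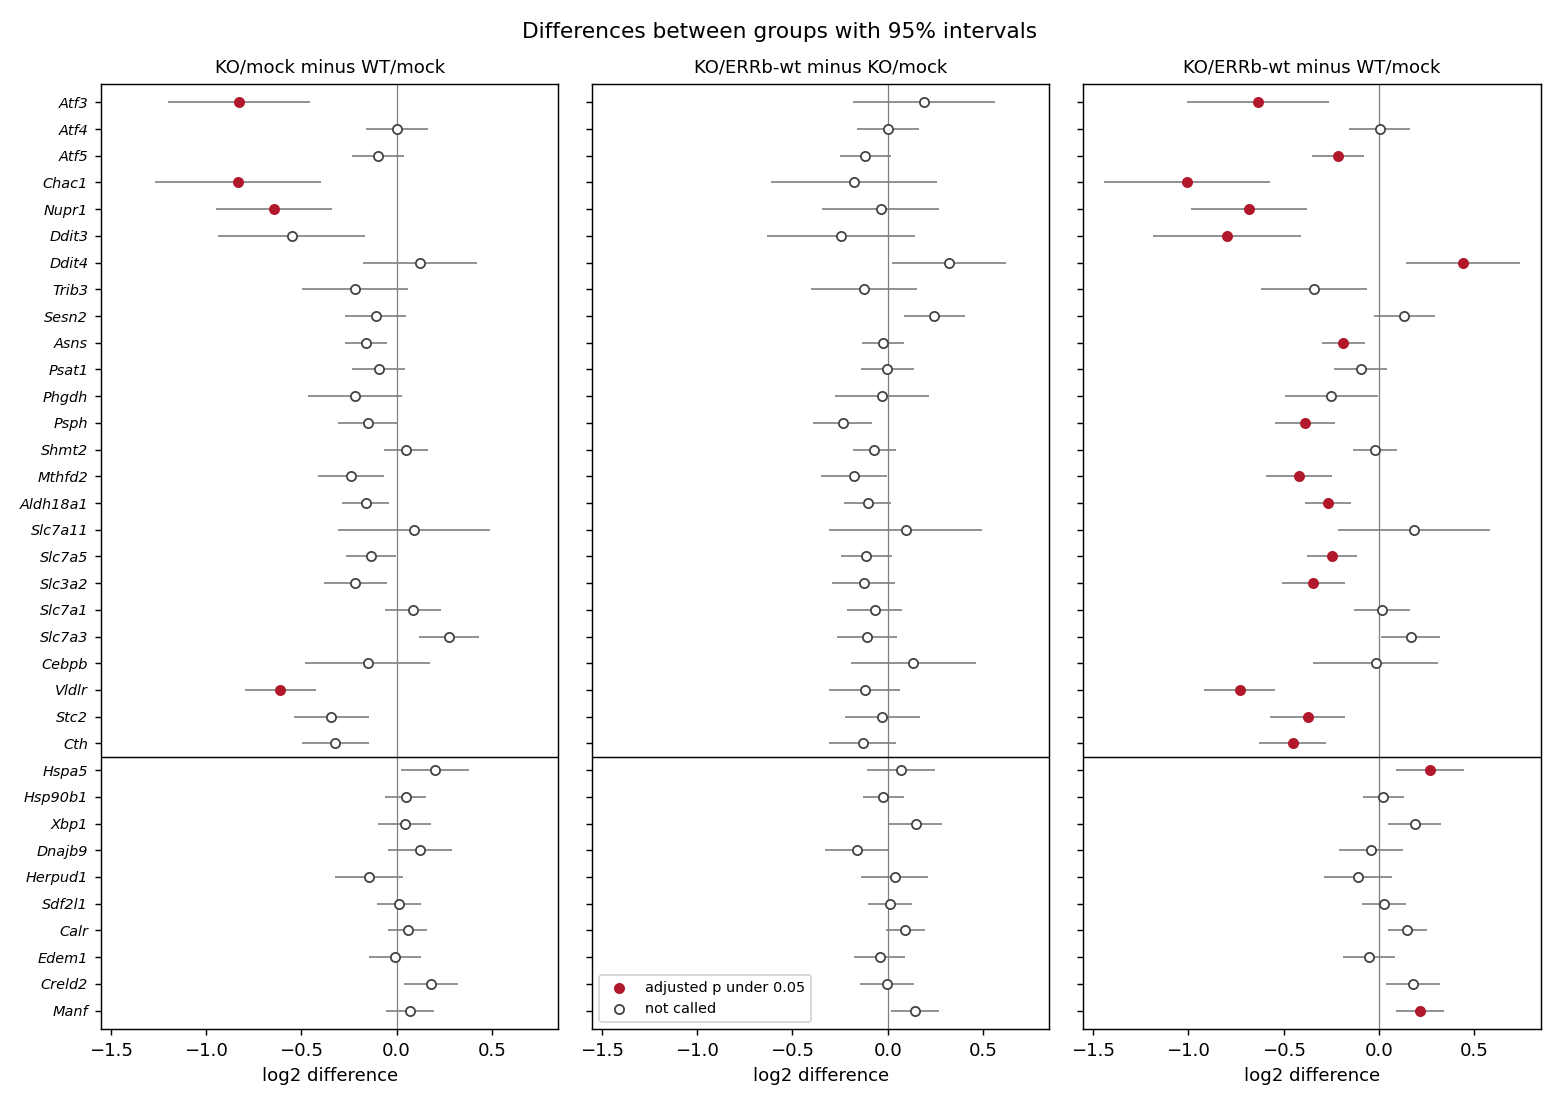
The log2 difference (horizontal axis) of each of 35 genes (rows) with its 95% interval, in the 3 comparisons (panels), filled where the adjusted p was under 0.05. The left panel has 4 filled points, the middle none and the right 17, with 15 of the ATF4 type and 2 ER chaperone genes.

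The means of the classes were also read clone by clone. The mean of the 25 ATF4-type genes was 8.95 and 8.98 on the arrays of clone 5-2, and 8.83 and 8.74 on those of clone 5-5. It was 8.68 and 8.79 on clone 8-3, 8.61 and 8.55 on clone 8-4, 8.65 and 8.59 on clone 12-1 and 8.63 and 8.59 on clone 12-3. Clone 5-2 was highest, and the second array of clone 8-3 lay above the second array of clone 5-5, so KO/mock and WT/mock overlapped in this mean. KO/ERRb-wt lay below WT/mock on every array.

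Gene by gene, both arrays of clone 5-2 were above both of clone 5-5 in 14 of 25 ATF4-type genes and below in 2, against 18.0% and 20.8% of all genes. Both arrays of clone 8-3 were above both of clone 8-4 in 17 of 25 and below in 2, against 20.8% and 19.2% of all genes. Clone 12-1 was above clone 12-3 in 2 and below in 5, against 18.1% and 20.2% of all genes. For the 10 ER chaperone genes clone 5-2 was above clone 5-5 in 1 and below in 7. In a limma fit with the 6 clones as groups no listed gene was called between clones of a label, as against 0, 2 and 0 of all genes for WT/mock, KO/mock and KO/ERRb-wt. An unadjusted p under 0.05 was found for 8, 5 and 1 of the 35 genes, against 7.39%, 6.89% and 5.11% of all genes.

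Set against clone 5-2 alone, the ATF4-type genes had a median of -0.19 on KO/mock, with 21 of 25 lower, and -0.31 on KO/ERRb-wt, with 21 lower. Set against clone 5-5 alone, the medians were -0.13 and -0.19, with 18 and 19 lower. For the ER chaperone genes the medians against clone 5-2 were 0.10 and 0.12, and against clone 5-5 they were 0.01 and 0.04. Without clone 5-2, 1 ATF4-type gene was called on KO/mock and 4 on KO/ERRb-wt against WT/mock. Without clone 5-5 it was 9 on KO/mock.

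**Figure D3:**
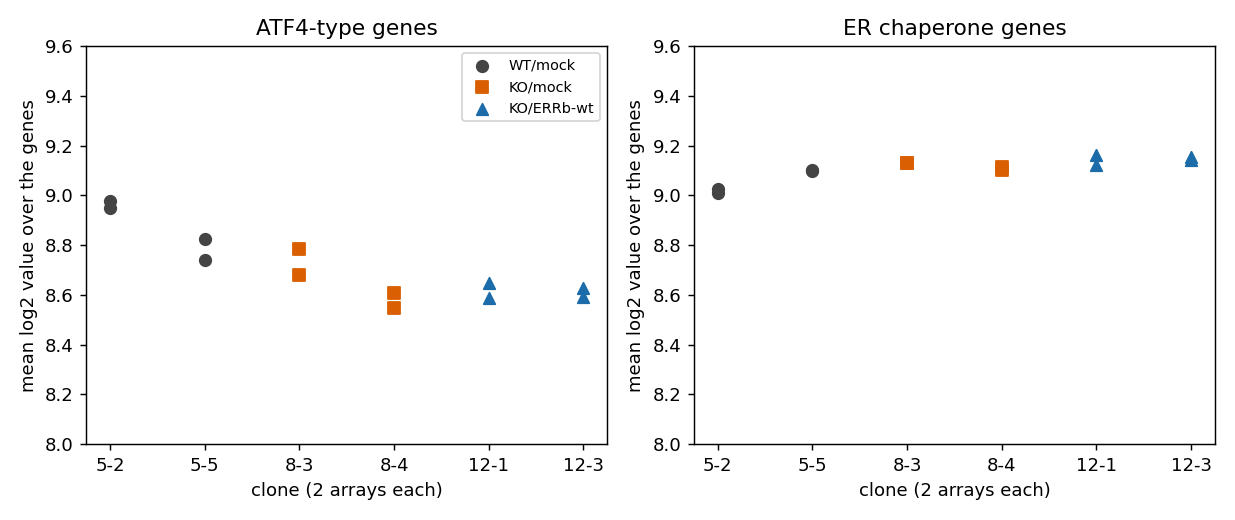
Mean log2 value over the 25 ATF4-type genes (left) and the 10 ER chaperone genes (right) on each array (vertical axis, from 8), with the 2 arrays of each clone above its name. In the left panel clone 5-2 is highest at 8.95 and 8.98, clone 5-5 comes next and overlaps clone 8-3; in the right panel clone 5-2 is lowest at 9.03 and 9.01.

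The differences between KO/mock and WT/mock were also read by whether the promoter window held the composite core. Of the 7 measured genes with the core 4 were called lower, the 4 whose windows are printed above, and their median was -0.61. Trib3, Asns and Slc7a11, which also hold it, were at -0.22, -0.16 and 0.09. None of the 15 without the core was called, and their median was -0.15, with Ddit3 at -0.55 and Stc2 at -0.34. Over all genes the shares called lower were 3.30% with the core and 3.51% without. On KO/ERRb-wt against WT/mock 5 of 7 with the core and 7 of 15 without were called lower, against 9.01% and 12.5% of all genes. This split of a few genes was not tested.

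**Figure D4:**
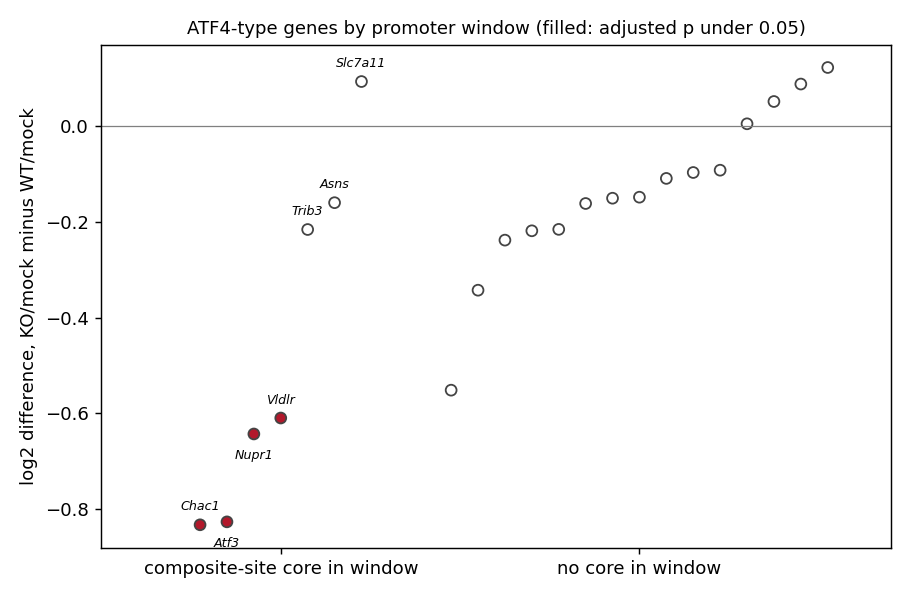
Log2 difference, KO/mock minus WT/mock (vertical axis), of ATF4-type genes with the composite core in their promoter window (left, named) and without it (right), filled where the adjusted p was under 0.05. Chac1, Atf3, Nupr1 and Vldlr, between -0.83 and -0.61, are the filled points, and Slc7a11 lies above 0.

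Other genes of the same pathways were read from lists chosen by function, with earlier results of these data known. Their shares are set beside those of all genes as a description, not a test. The shares called in the 3 comparisons, in the order above, were 5.58%, 4.40% and 20.8% of all genes. Among genes with a mean of at least 6 they were 10.8%, 8.30% and 37.8%. Of 17 measured stress sensors and translation control genes, only Eif2b2, a subunit of the exchange factor that phosphorylated eIF2alpha blocks, rose on KO/mock against WT/mock (0.36, adjusted p = 0.0291). Its call ended without 5-2/1 or 5-2/2, 5-5/1, 8-3/1 or 8-4/1 or 8-4/2 (adjusted p up to 0.0811). On KO/ERRb-wt against WT/mock 5 rose and 2 fell, 41.2% of the list beside 37.8% of genes with a mean of at least 6. Eif2ak2, the double-stranded RNA kinase of eIF2alpha, fell by 0.59 ± 0.09 (SE; adjusted p = 0.000726), and Atf6b rose by 0.41 (adjusted p = 0.00343). Eif2ak1, the heme-regulated kinase, rose by 0.24 (adjusted p = 0.02), a call ended without 5-2/1 or 5-2/2 (adjusted p up to 0.0605).

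A second list of 25 amino acid stress genes of the ATF4 type, 21 of them measured, had 2 higher and 5 lower on KO/mock against WT/mock, with a median of -0.18. The glutamine and neutral amino acid transporter Slc1a5 fell by 0.38 (adjusted p = 0.0146) and Slc43a1, a leucine transporter, by 0.52 (adjusted p = 0.00393). The transporter Slc38a2 and the one-carbon enzyme Mthfd1l rose by 0.34 and 0.23 (adjusted p = 0.047 and 0.0413). Slc1a5 lost its call without 5-2/1 or 8-4/2 (adjusted p up to 0.0551). Of the 12 arrays, 10 ended the Slc38a2 call, all but 5-5/2 and 8-3/2 (adjusted p up to 0.134), and 10 that of Mthfd1l, all but 5-5/1 and 12-1/2 (adjusted p up to 0.116). The other 3 that fell, Pck2, Ero1a and Tnfrsf10b, at -0.80, -0.64 and -0.65, lie on chromosome 14. The 342 genes of that chromosome with a mean of at least 6 had a median of -0.41 against 0.03 for other genes, so the part of this shift in their values cannot be told apart. None of the 37 listed genes lies there. Without chromosome 14 the list had 2 higher and 2 lower of 18, a count chosen after seeing the data.

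This second list had 4 higher and 11 lower in KO/ERRb-wt against WT/mock, or 4 and 8 of 18 without chromosome 14. Slc1a5 fell by 0.71 ± 0.07 (SE; adjusted p = 9.17e-05), Jdp2, an AP-1 repressor, by 0.87, Gpt2, an alanine aminotransferase, by 0.53 and Slc43a1 by 0.42, while Slc38a2 rose by 0.59 ± 0.08 (SE; adjusted p = 0.000631). None of these 5 calls ended without a single array. Jdp2 lost its call without clone 5-2 or 12-3 (adjusted p = 0.0977 and 0.0945). Gpt2 lost its call without clone 5-2, 12-1 or 12-3 (adjusted p = 0.116, 0.0544 and 0.06). Against KO/mock, Slc1a5 fell by 0.33 on KO/ERRb-wt (adjusted p = 0.0384), and Gldc, of the glycine cleavage system, and the autophagy adaptor Sqstm1 rose by 0.40 and 0.23 (adjusted p = 0.0474 and 0.0379). Single arrays ended each of these 3 calls: all but 5-2/2 and 5-5/2 for Slc1a5, all but 8-4/1 for Gldc, and all but 5-5/1 and 5-5/2 for Sqstm1, with adjusted p up to 0.099, 0.121 and 0.0952.

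Of 28 further folding and degradation genes of the ER, 1 rose and 1 fell on KO/mock against WT/mock. Syvn1, the ubiquitin ligase of ER-associated degradation, rose by 0.35 ± 0.06 (SE; adjusted p = 0.00693), and Dnajc3, of chromosome 14, fell by 0.61. Between KO/ERRb-wt and WT/mock 8 rose and 2 fell, with a median of 0.09. The share called was 35.7%, against 20.8% of all genes and 37.8% of genes with a mean of at least 6. The disulfide isomerase P4hb rose by 0.49 ± 0.05 (SE; adjusted p = 9.17e-05), Selenos, Hyou1, Syvn1 and Dnajb11 by 0.43, 0.41, 0.34 and 0.33. P4hb was the 1 gene of this list called against KO/mock, at 0.30 (adjusted p = 0.0123). All these calls held without any single array. Against KO/mock, P4hb lost its call without clone 8-3, 12-1 or 12-3 (adjusted p = 0.13, 0.0572 and 0.0795). Syvn1 on KO/mock lost its call without clone 5-2 or 8-4 (adjusted p = 0.0821 and 0.0681). Dnajb11 on KO/ERRb-wt against WT/mock lost its call without clone 5-2 or 12-1 (adjusted p = 0.0739 and 0.0591). Pdia6, Derl1 and Fkbp2 rose by 0.18 to 0.20, and lost their calls under median centring. Single arrays ended them too, all but 5-5/2 for Pdia6 and Derl1, and for Fkbp2 all but 8-3/2, 8-4/1, 12-1/1 and 12-3/1 (adjusted p up to 0.117, 0.127 and 0.102).

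Of 17 aminoacyl-tRNA synthetases, some of which ATF4 is known to raise, Farsa rose by 0.23 on KO/mock against WT/mock (adjusted p = 0.0186, and up to 0.0536 without 5-5/1 or 8-4/1). The list median was -0.04, with 11 of 17 below 0. Between KO/ERRb-wt and WT/mock 3 rose and none fell, Farsa by 0.40, and 11 of 17 were again below 0. The share called was 17.6%, beside 20.8% of all genes. The NRF2 oxidative stress list, with 10 genes measured, had 3 higher and none lower on KO/ERRb-wt against KO/mock. Gclc, which makes the glutathione precursor, rose by 0.32 (adjusted p = 0.0123), and Nqo1 and Osgin1 rose by 0.38 and 0.34. The Gclc call held without any single array but ended without clone 8-3, 12-1 or 12-3 (adjusted p = 0.127, 0.0522 and 0.0857). The Nqo1 call ended without any KO/mock array or 12-3/1 or 12-3/2 (adjusted p up to 0.0845), and that of Osgin1 without any array but 5-5/2 and 8-4/2 (adjusted p up to 0.1). On KO/mock against WT/mock Nqo1 fell by 0.34 (adjusted p = 0.0394), and this call ended without any array but 5-5/2, 8-3/2 and 12-1/2 (adjusted p up to 0.115). Of 11 heat shock genes, Hspa1a fell by 0.65 on KO/mock against WT/mock (adjusted p = 0.0137), and its signal may include its near-identical copy Hspa1b. This Hspa1a call ended without clone 5-5, 8-3 or 8-4 (adjusted p = 0.069, 0.0776 and 0.0712). On KO/ERRb-wt against WT/mock 3 of the 11 rose (Hsph1, Dnajb1 and Bag3) and 2 fell (Hspa1a and Hspa1b). This was 45.5% of the list, beside 20.8% of all genes and 37.8% of genes with a mean of at least 6. Of the 12 arrays left out in turn, 5 ended the call of Hsph1, 5 that of Bag3, 7 that of Hspa1a and 4 that of Hspa1b (adjusted p up to 0.095). Dnajb1 lost its call without clone 5-2 or 12-1 (adjusted p = 0.133 and 0.0662). Against KO/mock 1 rose on KO/ERRb-wt, Bag3, a call that 9 of the 12 arrays ended when left out in turn (adjusted p up to 0.0958).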

How the data were processed

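Biotin-labelled total RNA of each sample went on 1 MoGene 2.0 ST array, per the labels' protocols. The deposited log2 values of 41345 probe sets came from RMA in the program Affymetrix Expression Console, as given in the submitters' processing notes. RMA equalises the distributions of arrays and so hides any change common to most genes. No scanner file was used, so values carry no detection call, and precision rests on the number of clones and arrays.

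The platform annotation gave 1 symbol for 23521 probe sets, several for 1814 and none for 16010, which makes 22180 genes at 1 probe set each. Chromosomes came from RefSeq, and no build is stated for the array annotation. A limma model of the 3 groups (limma 3.58.1, statmod 1.5.0, R 4.3.3) held all 12 arrays and clone as a random block (clone correlation 0.0286), two-sided, adjusted by Benjamini-Hochberg over all probe sets and called under 0.05. It was tested on simulated data (100 probe sets changed per size), with noise drawn separately for each array and no clone effect. The shares found therefore do not apply to clones that differ. A log2 change of 0.5 was found in 50% of cases, and one of 1 in 87%, when KO/mock was set against WT/mock. The shares were 57% and 86% in KO/ERRb-wt against KO/mock, then 55% and 86% in KO/ERRb-wt against WT/mock. Alternatives were other blocks, scalings, filters and priors, and leaving out each array or clone. The genes and lists were chosen with earlier results of these data known. Values on every array are given for genes called in any comparison, for the 3 ATF4-type and 2 ER chaperone genes with the largest difference in each comparison, and for some genes contrasted with them by role. Genes of other lists are named only where called.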

Additional observations from a re-analysis of the deposited data

Results flagged for a closer look

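In 7 of 108 groups of 4 arrays, 1 array stood apart by Dixon's criterion, against 5.4 that chance would give at 1 in 20. The ratio of the gap to the range was 0.888 for Asns on WT/mock (clone 5-5 replicate 2 low, 11.94 against 11.97 for the next), 0.863 for Aldh18a1 on KO/mock (clone 8-3 replicate 2 high) and 0.9 for Xbp1 on KO/ERRb-wt (clone 12-1 replicate 2 low, 9.25 against 9.28). It was 0.883 for Sdf2l1 on WT/mock (clone 5-2 replicate 2 low), 0.886 for Sdf2l1 on KO/mock (clone 8-4 replicate 1 low), 0.852 for Calr on KO/mock (clone 8-3 replicate 1 high) and 0.91 for Edem1 on KO/mock (clone 8-3 replicate 2 high, 9.39 against 9.26).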

How the results depend on the processing

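No called direction reversed in any alternative. ATF4-type genes called on KO/mock against WT/mock, 4 as reported, were 0 with clone averages, 1 with only the 2 groups compared, 7 without dim probe sets, 9 with a trended robust prior, 1 to 6 without 1 array, 1 without clone 5-2 or clone 8-4 and 9 without clone 5-5. Over all genes 5.58% were called there as reported, 18.5% of the 9761 left without dim probe sets, 7.94% with the trended prior, and 1.80% and 6.36% without clones 5-2 and 5-5. On KO/ERRb-wt against KO/mock, 0 as reported, 2 were called without dim probe sets and 1 with the trended prior, where all genes gave 15.8% and 6.49% beside 4.40% as reported. On KO/ERRb-wt against WT/mock, 15 as reported, the count was 2 with clone averages, 4, 7 and 8 without clones 5-2, 12-1 and 12-3, and 9 to 15 without 1 array. The ATF4-type medians kept their sign in all settings run, from -0.24 to -0.12, -0.12 to -0.03 and -0.31 to -0.19 in the 3 comparisons. ER chaperone genes called on KO/ERRb-wt against WT/mock, 2 as reported, were 0 with clone averages, the 2 groups alone, median centring or without clones 5-2, 12-1 or 12-3, 1 without clone 8-3 or 8-4, 4 without dim probe sets, with the trended prior or without clone 5-5, and 0 to 3 without 1 array. All genes gave 20.8% as reported, 47.0% without dim probe sets, 23.0% with the trended prior, and 10.7% and 18.9% without clones 5-2 and 5-5. On KO/mock against WT/mock 2 were called without clone 5-5. The ER chaperone median was 0.0141 and 0.105 without clones 5-2 and 5-5 on KO/mock against WT/mock, 0.0714 with quantile normalization and -0.0147 without clone 8-4 on KO/ERRb-wt against KO/mock (-0.00327 with median centring, and 0.00863 to 0.0501 without 1 array), and 0.0512 with median centring, 0.0274 without dim probe sets and 0.0371 without clone 5-2 on KO/ERRb-wt against WT/mock. The replicate numbers 1 and 2 are counted within clones, and same-numbered arrays deviated together by correlations of 0.07, 0.06 and 0.12, so they were not taken as pairs. With a replicate block 1 ER chaperone gene was called on KO/ERRb-wt against WT/mock, and Chac1 lost its call on KO/mock (adjusted p = 0.0513), as did Atf5, Ddit4 and Hspa5 on KO/ERRb-wt (adjusted p = 0.0534, 0.0655 and 0.0619). Clone averages, which compare 2 clones with 2, called 3, 0 and 1501 genes in all. The cause of each change was not tested beyond the fewer arrays or genes that a setting leaves.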
